A study of Mus musculus with 21 samples.

Results

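The comparison described here sets B220-positive bone marrow cells of Blnk knockout mice against those of wild-type mice. Its members are the 3 arrays labelled Blnk KO BM and the 3 labelled wt BM, 6 of the 21 arrays in the series. Neither group carries a transgene. B220 is a surface form of CD45 that marks the B lineage, and the cells were taken on a cell sorter and are described as non-neoplastic. The remaining arrays hold the same cells of mice with a Cebpb LAP transgene, with or without the Blnk knockout, and LB31, a pre-B leukaemia line from a Blnk knockout mouse. LB31 carried an empty pMY retroviral vector, the vector with Blnk cDNA, or one with a loss-of-function Blnk mutant. The age, sex, strain and number of the mice, the design of the Blnk deletion and the promoter of the transgene are not given in the sources used here.

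B cell precursors in the marrow first assemble an immunoglobulin heavy chain, which pairs with the surrogate light chain to form the pre-B cell receptor. Signals from that receptor stop heavy chain recombination, drive a burst of division and then switch off the surrogate light chain, so that the light chain genes can be recombined. BLNK, also called SLP-65, is the adaptor that the kinase SYK phosphorylates at this receptor, and it holds BTK and phospholipase C gamma 2 together. Precursors without BLNK are known to be held back at the large pre-B stage, and mice without it are known to develop pre-B leukaemia.

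The arrays were Affymetrix Mouse Genome chips, and their number limits the precision. Signals are given as normalized log2(signal + 4), and the 40th percentile of the arrays, used as the filter level, lay at 4.20 on this scale. The B-lineage gene Cd79a, which encodes a signalling chain of the antigen receptor, read between 8.60 and 9.09 on the 6 arrays. Pairs of arrays within the wild-type group correlated with r from 0.972 to 0.974 over all probe sets, pairs within the knockout-labelled group from 0.971 to 0.974, and pairs across the groups from 0.961 to 0.964. The GAPDH ratio of 3' to 5' signal, a sign of RNA quality, was 0.786 ± 0.021 (SD, n = 3) in wild-type and 0.836 ± 0.014 in knockout-labelled samples, and its part in the results was not tested. Whether the 3 samples of a group came from separate mice is not given. The p-values rest on the spread within all 4 marrow groups, 12 arrays with the LAP transgenic ones included. Some or all of that spread may be technical. In sorted bulk cells, fewer cells of a type and less message per cell cannot be told apart.

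The Blnk probe set did not follow the label. It read 12.27, 12.41 and 12.27 on the wild-type and 12.47, 12.28 and 12.01 on the knockout-labelled arrays, and the groups overlapped. Whether the probes lie in the deleted part of the gene is not given, so this reading checks nothing, and the group is called knockout-labelled throughout. On mouse chromosome 19 the gene next to Blnk is Dntt. Among the 10 RefSeq genes on either side of Blnk, 14 of 20 were tested and 4 were called, all higher: Dntt, Aldh18a1, Tctn3 and Slit1. Over all genes tested 17.1% were called, and 8.38% were called higher. With the same label in LAP transgenic marrow, Dntt (2.99) and Aldh18a1 (0.89) were called higher too. Tctn3 (0.42) and Slit1 (-0.36) were not called there. The part of this neighbourhood in the result for Dntt was not tested.

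Genes of the surrogate light chain were higher, and MHC class II genes and surface receptors of mature B cells lower, in the knockout-labelled cells. Enpep encodes BP-1, a surface peptidase by which large pre-B cells are known, and was 12.3-fold higher. Rasgrp1, which loads Ras with GTP after antigen receptor signals, was 7.78-fold lower. Of 13342 genes tested, limma called 2277 at an adjusted p under 0.05, which is 17.1%. Called genes divided into 1118 higher (8.38%) and 1159 lower (8.69%) in knockout-labelled cells, and 305 and 233 of them differed at least 2-fold. The 3 knockout-labelled arrays lay all above the 3 wild-type arrays for 17.7% of genes and all below for 18.3%. The largest rises and falls named below were chosen from these genes. Among them are Enpep, Erg, Rasgrp1, Egr3, Fcmr, Brwd1, Cd83, Iglv1, Lat2 and Cd55. For the genes so chosen the lack of overlap is not a result. As deposited, the knockout-labelled arrays were brighter, with an array median of 28.9 ± 1.78 (SD, n = 3) against 21.6 ± 2.08. On those values the median difference over the genes tested was shifted by 0.29, with 3215 called higher and 377 lower. With arrays set to a common median instead, 771 were higher and 1578 lower. Differences below are relative to the quantile-normalized bulk of genes, whose median difference was 0.0080.

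**Figure D1:**
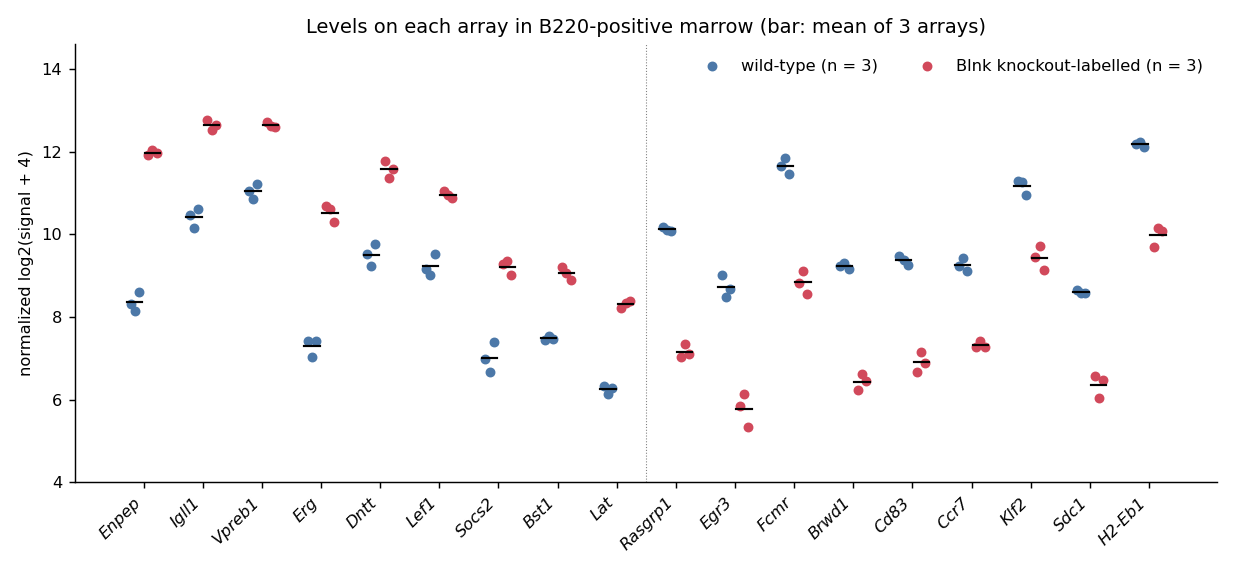
Normalized log2 signal of 18 genes on each array, with 3 wild-type arrays in blue and 3 knockout-labelled arrays in red, and a bar at each group's mean. The 9 genes left of the dotted line were higher on all 3 knockout-labelled arrays and the 9 to the right lower. The 18 were picked for display, and some, such as Enpep and Rasgrp1, were named only among genes without overlap. Their lack of overlap is therefore not a result. Over all genes tested, 17.7% lay all above and 18.3% all below.

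The surrogate light chain was higher. Igll1, which encodes its lambda5 part, read 10.46, 10.16 and 10.61 on the wild-type and 12.76, 12.51 and 12.64 on the knockout-labelled arrays. Vpreb1, which encodes its V-like part, read 11.05, 10.85 and 11.21 against 12.72, 12.62 and 12.58. Neither pair of groups overlapped. The differences were 2.23 ± 0.15 (SE, limma adjusted p = 1.31e-06) and 1.60 ± 0.11 (adjusted p = 1.31e-06). The Igll1 probe set is of a type (_x_at) whose probes can also bind other sequences, and a dimmer probe set of the gene was not called (0.42 ± 0.28, adjusted p = 0.384). Of 6 genes of the pre-B receptor list, 3 rose and 1 fell, or 66.7% called against 17.1% over all genes. The median was 0.10, and after median centring 2 rose and 2 fell. The third to rise, Vpreb3, changed least (0.31 ± 0.09), and leaving out any array but knockout-labelled array 3 ended its call. Cd79b, the partner of Cd79a, fell by 0.43 ± 0.10 (adjusted p = 0.00923), while the heavy chain constant gene Ighm (-0.12 ± 0.09) and Cd79a (-0.10 ± 0.11) were not called.

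The promoters of the 2 surrogate light chain genes are shown because both hold an E box, the element bound by the early B cell factor E2A. Each window runs 150 bases up to the start of the RefSeq transcript on the minus strand of chromosome 16 in GRCm38.p6, and capitals mark CAGGTG or its reverse complement.
Igll1 (chr16:16863986-16864135): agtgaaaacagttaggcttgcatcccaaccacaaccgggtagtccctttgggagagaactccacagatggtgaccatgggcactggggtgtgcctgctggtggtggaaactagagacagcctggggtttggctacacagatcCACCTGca
Vpreb1 (chr16:16869256-16869405): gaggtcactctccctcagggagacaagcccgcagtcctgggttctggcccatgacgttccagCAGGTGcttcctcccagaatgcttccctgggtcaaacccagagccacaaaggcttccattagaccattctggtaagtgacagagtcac
The match starts 8 bases before the transcript in Igll1 and 88 bases before it in Vpreb1. CAGGTG on either strand is found in 20.2% of the 32851 RefSeq promoter windows of 300 bases, so a match is a description of these letters and not a site.

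Surface antigens of early precursors divided. Enpep read 8.31, 8.15 and 8.60 on the wild-type and 11.92, 12.05 and 11.97 on the knockout-labelled arrays (3.62 ± 0.19, limma adjusted p = 1.06e-07). Bst1, the BP-3 antigen of early B cells, rose by 1.56 ± 0.12 (adjusted p = 1.74e-06). CD43, the gene Spn, rose by 1.03 ± 0.11, the immature B cell antigen Cd93 by 0.96 ± 0.13, and Crlf2, the receptor for thymic stromal lymphopoietin, by 0.59 ± 0.14. In the other direction, Il2ra, the CD25 antigen of small pre-B cells, read 7.67, 7.76 and 7.45 against 6.18, 6.04 and 5.26, and all 3 knockout-labelled arrays were lower (-1.80 ± 0.27, adjusted p = 0.000563). Its other probe set missed the threshold (-0.98 ± 0.32, adjusted p = 0.0645). Ly6d, a marker of B-lineage commitment, fell by 0.96 ± 0.17. Of 13 genes in this list, 5 rose and 3 fell, or 61.5% called against 17.1% over all genes. The median was 0.24, and after median centring 5 fell. The progenitor receptors Kit (0.24 ± 0.28) and Flt3 (0.30 ± 0.41) were not called. Ptprc, the gene of the sort marker itself, read 12.56, 12.49 and 12.63 against 12.06, 12.26 and 11.99. It fell by 0.46 ± 0.07 (adjusted p = 0.000700), but its other probe set was not called (-0.06 ± 0.29), and the mean of both ended the call.

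Of 13 genes of recombination 2 were called, 15.4%, near the 17.1% over all genes. Dntt encodes terminal transferase, which adds bases at heavy chain joints. It read 9.51, 9.23 and 9.77 on the wild-type and 11.78, 11.36 and 11.58 on the knockout-labelled arrays, with no overlap (2.07 ± 0.24, adjusted p = 6.85e-05). Both of its other probe sets rose too (1.66 ± 0.22 and 2.60 ± 0.33). Brwd1, a chromatin reader that opens the kappa light chain locus, read 9.22, 9.30 and 9.15 against 6.24, 6.63 and 6.44 (-2.79 ± 0.12, limma adjusted p = 5.60e-08). The 3 further tested probe sets of Brwd1 fell by 2.42 ± 0.18, 2.47 ± 0.24 and 1.53 ± 0.35. The recombinase genes Rag1 (-0.24 ± 0.16, adjusted p = 0.347) and Rag2 (0.23 ± 0.16, adjusted p = 0.387) and the DNA ligase gene Lig4 (0.34 ± 0.16, adjusted p = 0.182) were not called. Lig4 passed the threshold as deposited (0.58), with the 6 arrays alone (0.34) and without array 3 of the LAP transgenic group (0.34). Dntt was the only gene of the 13 in the list to rise and Brwd1 the only one to fall, and as deposited 5 rose.

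Light chain transcripts were lower. Iglv1, a lambda variable segment, read 11.88, 11.93 and 11.68 on the wild-type and 9.15, 9.80 and 9.21 on the knockout-labelled arrays. The difference was -2.44 ± 0.18 (limma adjusted p = 1.71e-06). Of the 5 light chain genes tested, 4 fell and 0 rose, or 80% called against 17.1% over all genes. The median was -1.37, and as deposited 3 fell. The kappa entry Igk fell by 0.70 ± 0.16, a call that ended as deposited and with the mean of its probe sets. Igkv8-30, a kappa variable segment, was not called (-0.26 ± 0.26). Immunoglobulin segments are alike in sequence, and their probe sets can share signal.

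Among kinases and adaptors that act directly at the receptor, Lat, Plcg1, Lcp2 and Fyn were called higher and 11 genes lower. Lat encodes the membrane adaptor of the T cell receptor. It read 6.32, 6.13 and 6.29 on the wild-type and 8.23, 8.33 and 8.39 on the knockout-labelled arrays (2.07 ± 0.13, adjusted p = 4.69e-07). Lat2, which encodes the related adaptor NTAL or LAB of B and mast cells, read 8.90, 8.93 and 8.78 against 5.97, 6.94 and 6.82 (-2.29 ± 0.20, adjusted p = 5.98e-06). The groups of Lat did not overlap, and the pair moved in opposite directions.

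Lcp2 encodes SLP-76, the closest relative of BLNK in T cells and myeloid cells. It read 6.90, 7.05 and 6.87 on the wild-type and 8.15, 8.39 and 8.13 on the knockout-labelled arrays (1.29 ± 0.21, adjusted p = 0.00104). Plcg1, which encodes phospholipase C gamma 1, the form used in T cells, read 8.34, 8.37 and 8.24 against 10.09, 9.82 and 9.84 (1.60 ± 0.10, adjusted p = 6.79e-07). Every knockout-labelled value of both genes exceeded the wild-type ones. Plcg2, the form that BLNK binds, read 10.71, 10.87 and 10.71 against 10.86, 10.83 and 10.82, with overlapping groups (0.07 ± 0.09, adjusted p = 0.674). The Src-family kinase Fyn rose by 0.70 ± 0.10 (adjusted p = 0.000294). Probe sets did not speak with one voice here. Dimmer ones were not called for Plcg1 (-0.14 ± 0.30), Lcp2 (0.57 ± 0.28) and Lat2 (-0.89 ± 0.28 and -1.53 ± 0.51), and the mean of the probe sets ended the call for Plcg1. Zap70, a kinase of the T cell receptor, was not called on its brightest probe set (0.29 ± 0.46), while its 2 other probe sets rose by 2.64 ± 0.30 and 2.09 ± 0.20.

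**Figure D2:**
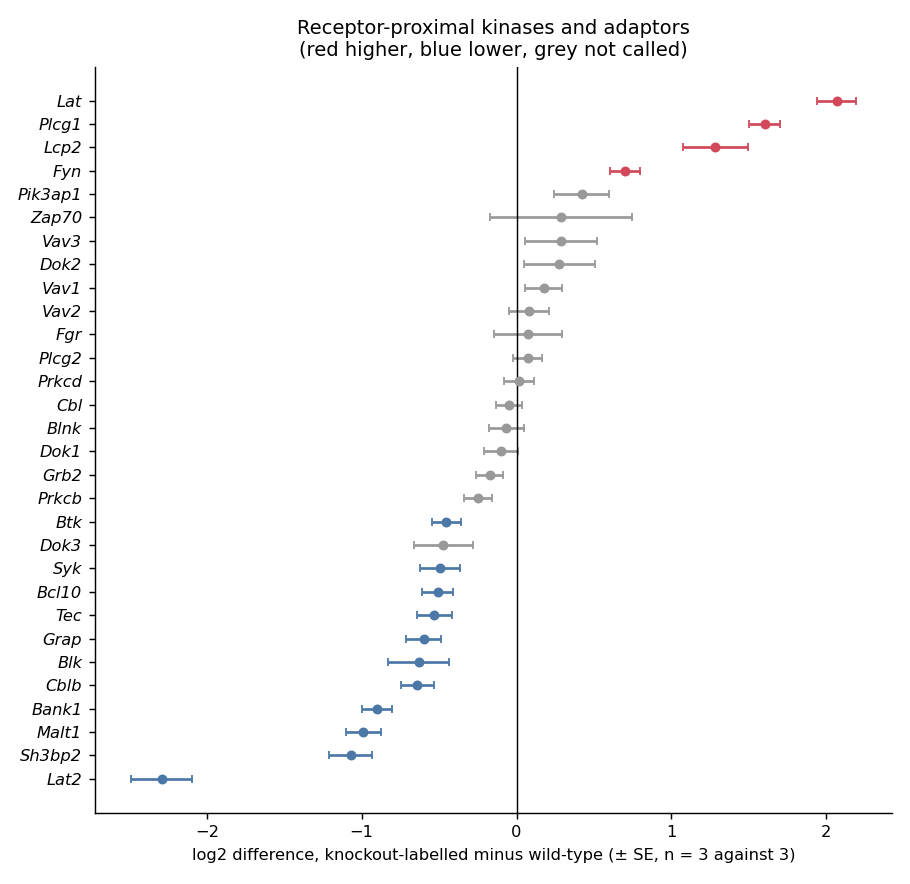
Log2 difference, knockout-labelled minus wild-type, of the 30 tested receptor-proximal kinases and adaptors, with bars of ± SE (3 arrays against 3). The 4 called higher, Lat, Plcg1, Lcp2 and Fyn, stand at the top in red, and the 11 called lower, down to Lat2 at -2.29, in blue, with 15 not called in grey.

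The 30 tested genes of this list held 4 that rose and 11 that fell, or 50% called against 17.1% over all genes. The median was -0.083. As deposited the split was 6 and 6, and after median centring 4 and 13. Those that fell included Sh3bp2, an adaptor that binds SYK (-1.07 ± 0.14), Malt1, a protease of the pathway to NF-kB (-0.99 ± 0.12), Bank1, a B cell scaffold (-0.90 ± 0.10), and the ubiquitin ligase Cblb (-0.64 ± 0.11). Other probe sets of Cblb were not called (-0.44 ± 0.15 and -0.27 ± 0.14). Btk, the kinase that BLNK brings to its substrate, fell by 0.45 ± 0.09 (adjusted p = 0.00439), a call that ended as deposited. Syk itself fell by 0.49 ± 0.13 (adjusted p = 0.017). That call ended as deposited and without wild-type array 1, wild-type array 2 or knockout-labelled array 3, where the difference was -0.48, -0.46 and -0.34. Another probe set of Syk fell (-0.58 ± 0.11), and others were not called (-0.62 ± 0.24 and -0.77 ± 0.32).

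Among inhibitory receptors and phosphatases 6 of 14 genes were called lower. Btla, an inhibitory receptor, read 12.35, 12.46 and 12.50 on the wild-type and 10.15, 10.92 and 10.36 on the knockout-labelled arrays (-1.96 ± 0.18, adjusted p = 9.87e-06). The inhibitory Fc receptor Fcgr2b fell by 1.39 ± 0.09, the tyrosine phosphatase Ptpn6 by 0.99 ± 0.11, the sialic acid receptor Cd22 by 0.79 ± 0.11 and Cd72 by 0.69 ± 0.13. A dimmer probe set of Ptpn6 was not called (-0.23 ± 0.11). Inpp5d, which encodes the lipid phosphatase SHIP1, went the other way, at 9.70, 9.78 and 9.88 against 10.56, 10.51 and 10.50 (0.74 ± 0.07, adjusted p = 1.16e-05). The other 7 were not called. The share called was 50%, against 17.1% over all genes. The median was -0.51, and as deposited 5 fell and 2 rose.

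Downstream, exchange factors for Ras and Rap1 were called in both directions. Rasgrp1 read 10.18, 10.10 and 10.07 on the wild-type and 7.03, 7.34 and 7.10 on the knockout-labelled arrays (-2.96 ± 0.12, limma adjusted p = 5.48e-08). Of its other probe sets, 2 fell (-1.64 ± 0.37 and -2.0 ± 0.25) and 1 was not called (-0.62 ± 0.37). Rasgrp3, the main form of mature B cells, fell by 1.03 ± 0.13 (adjusted p = 0.000110), and Rasgrp2, which acts mainly on Rap1, rose by 0.82 ± 0.11 (adjusted p = 0.000178). None of the 3 other probe sets of Rasgrp2 was called (0.21 ± 0.16, 0.085 ± 0.097 and 0.13 ± 0.14), nor was the other one of Rasgrp3 (-0.80 ± 0.43). Atp2a3, a calcium pump of the endoplasmic reticulum, rose by 0.83 ± 0.17, with its other probe set not called (0.57 ± 0.25). The transcription factor Nfatc1 fell by 0.73 ± 0.08, but none of its 4 other probe sets was called and their mean ended the call. In this list of 23 genes 3 rose and 5 fell, or 34.8% called against 17.1% over all genes. The median was -0.030, whereas as deposited 9 rose and 3 fell. Without wild-type array 1 or wild-type array 3 the number that fell was 3 in either case.

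Early response genes, which antigen receptor signals switch on within minutes, were lower in more cases than higher. Egr3 read 9.02, 8.49 and 8.67 on the wild-type and 5.84, 6.15 and 5.35 on the knockout-labelled arrays (-2.94 ± 0.22, limma adjusted p = 1.74e-06), although a dimmer probe set was not called (-0.26 ± 0.44). Egr1 fell by 1.2 ± 0.18 (adjusted p = 0.000628), Egr2 by 1.36 ± 0.29 (adjusted p = 0.00606) and the orphan receptor Nr4a1 by 1.03 ± 0.20 (adjusted p = 0.00287). Feedback inhibitors of the ERK kinases split. Dusp5, a phosphatase for ERK in the nucleus, fell by 2.02 ± 0.25, while Dusp6, its counterpart in the cytoplasm, read 10.45, 10.36 and 10.25 against 11.64, 11.39 and 10.85 (0.94 ± 0.15, adjusted p = 0.000645). Spred1, which holds Ras in check, rose by 1.12 ± 0.13, with 2 other probe sets rising and 3 not called. Of 28 genes 11 fell and 3 rose, or 50% called against 17.1% over all genes, with a median of -0.37. As deposited 7 fell and 4 rose. With wild-type array 1 or knockout-labelled array 3 left out 6 fell, and with wild-type array 2 left out 7.

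Of 15 genes for NF-kB subunits and inhibitors, 5 fell and 0 rose, or 33.3% called against 17.1% over all genes. The median was -0.17, and as deposited 3 fell and 2 rose. The 5 that fell included Nfkbia, the inhibitor that NF-kB itself induces (-0.54 ± 0.10, limma adjusted p = 0.00188), and the cofactor Bcl3 (-1.18 ± 0.26). The ubiquitin ligase Birc3 fell too (-0.69 ± 0.12), but its other probe set was not called (0.0047 ± 0.22).

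**Figure D3:**
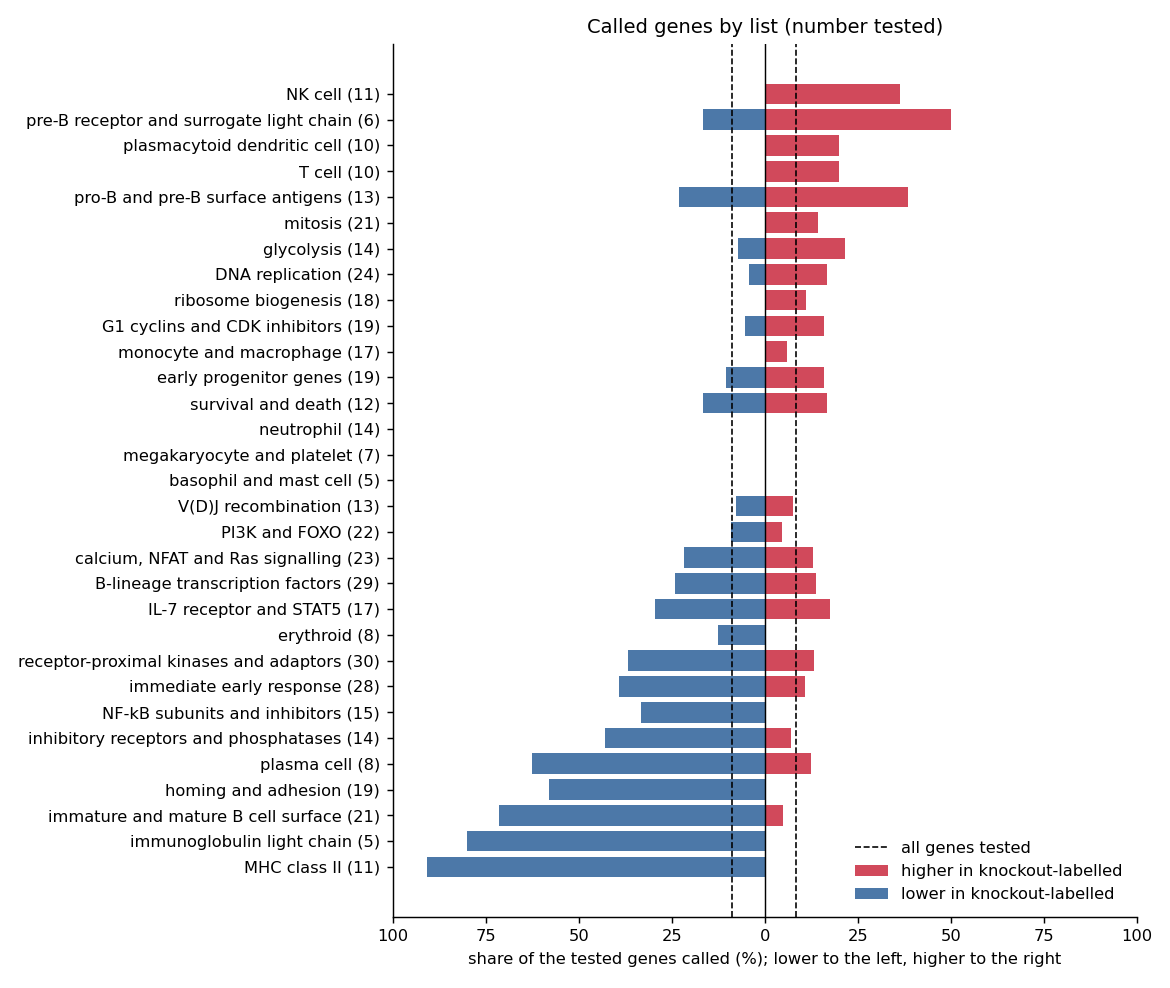
Share of the tested genes of each list called higher (to the right) or lower (to the left) in knockout-labelled cells, with the number tested in parentheses. Dashed lines mark 8.38% higher and 8.69% lower over all genes tested. MHC class II (10 of 11 lower), the immunoglobulin light chain list (4 of 5 lower) and the immature and mature B cell surface list (15 of 21 lower) lie at the foot.

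The receptor for interleukin 7, the growth factor of B precursors, was not called at Il7r (-0.33 ± 0.11, adjusted p = 0.0506), and its other probe set was not called either (0.11 ± 0.11), although 6 alternatives, median centring among them, brought it past the threshold. Among genes that STAT5 induces, Socs2, a feedback inhibitor of cytokine signals, read 6.98, 6.68 and 7.38 on the wild-type and 9.28, 9.35 and 9.01 on the knockout-labelled arrays (2.20 ± 0.20, adjusted p = 1.01e-05). Another of its probe sets rose (2.10 ± 0.20), and others were not called (1.28 ± 0.42, 0.77 ± 0.29 and 0.78 ± 0.34). The survival kinase Pim2 read 8.06, 8.23 and 7.94 against 7.29, 7.55 and 7.10 (-0.77 ± 0.14, adjusted p = 0.00207). These 2 genes of the list moved in opposite directions, each without overlap. Of 17 genes 3 rose and 5 fell, or 47.1% called against 17.1% over all genes. The median was -0.14, and as deposited 5 rose and 1 fell. With 1 of the 6 arrays left out, the number that rose was between 1 (without knockout-labelled array 2) and 4, and the number that fell between 2 and 6. Bcl2, the survival factor, fell by 1.29 ± 0.16 (adjusted p = 9.11e-05), and all 4 of its other probe sets fell. Bcl2l11, which encodes the death factor BIM, fell by 0.72 ± 0.17, a call that ended as deposited. Another of its probe sets fell (-0.74 ± 0.19), and others were not called (-0.45 ± 0.26, -0.52 ± 0.23 and -0.86 ± 0.34). The survival factor Mcl1 was not called on its brightest probe set (-0.14 ± 0.09). Of its 5 other probe sets 3 fell (-0.77 ± 0.09, -0.44 ± 0.07 and -0.43 ± 0.08), and with the mean of all it was called lower (-0.38, adjusted p = 0.00393 by limma).

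Of the B-lineage transcription factors, Lef1, a factor of pro-B and pre-B cells, read 9.17, 9.02 and 9.52 on the wild-type and 11.04, 10.94 and 10.89 on the knockout-labelled arrays (1.72 ± 0.22, adjusted p = 0.000162). Klf2, a regulator of lymphocyte homing and quiescence, read 11.29, 11.25 and 10.96 against 9.45, 9.72 and 9.14 (-1.73 ± 0.16, adjusted p = 9.87e-06). The groups were apart for both. Ikzf3, or Aiolos, which rises after pre-B receptor signals, fell by 1.23 ± 0.14 with its 2 other probe sets not called, Klf3 by 1.03 ± 0.15 and Mef2c by 0.77 ± 0.12. Irf4, a factor for light chain recombination, fell by 0.40 ± 0.09, a call that ended as deposited and with the mean of its probe sets. The founding factors of the lineage, Ebf1 (0.39 ± 0.19, adjusted p = 0.211) and Pax5 (0.24 ± 0.24, adjusted p = 0.558), were not called on their brightest probe sets, nor was Foxo1 (-0.076 ± 0.13). For Ebf1, 2 of 4 other probe sets rose (0.51 ± 0.15 and 0.62 ± 0.11), and it was called higher as deposited (0.63). In the whole list of 29 genes 4 rose and 7 fell, or 37.9% called against 17.1% over all genes. The median of the list was -0.055, whereas as deposited 9 rose and 4 fell. Outside it, among 19 genes of early progenitors, Erg read 7.42, 7.02 and 7.42 against 10.68, 10.60 and 10.29, the largest difference in that list (3.24 ± 0.15, adjusted p = 8.76e-08). Lyl1, a partner of E proteins in progenitors, rose by 0.80 ± 0.13. The list had 3 that rose and 2 that fell, or 26.3% called against 17.1% over all genes. When any one of the 6 arrays was left out, 0 or 1 fell.

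Surface receptors of immature and mature B cells formed one of the groups with the highest share of falls. Fcmr, the Fc receptor for IgM, read 11.65, 11.85 and 11.47 on the wild-type and 8.82, 9.12 and 8.55 on the knockout-labelled arrays (-2.82 ± 0.14, adjusted p = 9.26e-08). Cd83, which steadies MHC class II at the surface, read 9.48, 9.39 and 9.26 against 6.66, 7.15 and 6.89 (-2.47 ± 0.12, adjusted p = 9.26e-08). Both were named among the largest falls without overlap, so their separation is not a result. The complement regulator Cd55 fell by 2.29 ± 0.17, CD23 or Fcer2a by 1.95 ± 0.27, the adhesion receptor Cd2 by 1.78 ± 0.19 and the complement receptor Cr2 by 1.11 ± 0.18. CD20, or Ms4a1, read 12.81, 12.84 and 12.81 against 12.34, 12.57 and 12.21, a smaller fall (-0.45 ± 0.09, adjusted p = 0.00317). Of 21 genes 15 fell and 1 rose, or 76.2% called against 17.1% over all genes. The median was -0.99, and 13 fell as deposited. The gene that rose was Cd1d1, which presents lipids to T cells (0.95 ± 0.22, adjusted p = 0.00875).

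Of 19 homing and adhesion genes 11 fell and 0 rose, or 57.9% called against 17.1% over all genes. The 11 included the adhesion molecules Itgb7, Itga6 and Icam2. The median was -0.61, while as deposited 7 fell and 3 rose. Ccr7, which guides cells into lymph nodes, read 9.23, 9.42 and 9.12 on the wild-type and 7.27, 7.42 and 7.28 on the knockout-labelled arrays (-1.93 ± 0.12, adjusted p = 5.71e-07). The follicle receptor Cxcr5 fell by 1.43 ± 0.18, the chemokine receptor Ccr6 by 1.81 ± 0.30, the cannabinoid receptor Cnr2 by 1.26 ± 0.14 and the lysophospholipid receptor S1pr3 by 1.59 ± 0.22. A further probe set of S1pr3 was not called (-1.065 ± 0.456). Cxcr4, which keeps precursors in the marrow, fell by 0.49 ± 0.09 (adjusted p = 0.00268), a call that ended as deposited.

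Antigen presentation genes of MHC class II fell in 10 of 11 cases and rose in 0, or 90.9% called against 17.1% over all genes. The median was -1.57, and 9 fell as deposited and 11 after median centring. Leaving out single arrays of the 6 gave 10 or 11. H2-Eb1, a beta chain, read 12.18, 12.22 and 12.11 on the wild-type and 9.69, 10.16 and 10.07 on the knockout-labelled arrays (-2.20 ± 0.17, adjusted p = 3.22e-06). H2-Aa, an alpha chain, read 12.86, 13 and 12.86 against 11.45, 11.97 and 11.83 (-1.15 ± 0.11, adjusted p = 1.31e-05), and its 3 other probe sets fell further, by 1.64 ± 0.18, 1.74 ± 0.12 and 2.01 ± 0.15. No array of one group reached the other for either gene. Ciita, the master coactivator of class II transcription, read 7.79, 8.14 and 7.78 against 5.53, 5.93 and 5.74 (-2.17 ± 0.19, adjusted p = 5.85e-06). The peptide loading genes H2-DMa (-1.79 ± 0.16) and H2-DMb2 (-1.78 ± 0.16) and the invariant chain Cd74 (-1.57 ± 0.19) lay near the median of the list. The loading inhibitors H2-Oa (-0.92 ± 0.11) and H2-Ob (-0.59 ± 0.14), made mainly by B cells, fell less, and the protease Ctss was not called (-0.25 ± 0.10, adjusted p = 0.0970).

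Class II promoters are known to share a Y box, the letters ATTGG, close to their start, where CIITA is brought to the gene. The promoters of 4 genes that fell are shown, each as the 150 bases before the RefSeq transcript on chromosome 17 of GRCm38.p6, with ATTGG on either strand in capitals. H2-Aa lies on the minus strand and the others on the plus strand. In H2-Aa the cAMP response element TGACGTCA is also in capitals.
H2-Aa (chr17:34287824-34287973): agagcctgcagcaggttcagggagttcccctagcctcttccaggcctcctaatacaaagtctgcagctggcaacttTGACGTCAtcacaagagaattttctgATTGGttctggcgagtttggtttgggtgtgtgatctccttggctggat
H2-Eb1 (chr17:34305717-34305866): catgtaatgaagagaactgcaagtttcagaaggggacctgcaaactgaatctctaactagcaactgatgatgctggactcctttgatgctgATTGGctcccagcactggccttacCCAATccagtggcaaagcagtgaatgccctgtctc
H2-DMb2 (chr17:34145099-34145248): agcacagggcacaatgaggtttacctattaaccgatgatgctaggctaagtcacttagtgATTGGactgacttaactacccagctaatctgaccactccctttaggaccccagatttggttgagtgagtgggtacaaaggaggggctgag
H2-Oa (chr17:34092229-34092378): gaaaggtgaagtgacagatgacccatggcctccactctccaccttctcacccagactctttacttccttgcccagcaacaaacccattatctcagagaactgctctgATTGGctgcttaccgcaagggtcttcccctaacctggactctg
The match starts 48 bases before the transcript in H2-Aa, 59 and 35 in H2-Eb1, 90 in H2-DMb2 and 43 in H2-Oa. Of the 11 class II genes tested, 8 have a window in the RefSeq table and 6 of those hold ATTGG. So do 37.4% of all 32851 windows of 300 bases, which run from 250 bases before to 50 after each start, and TGACGTCA is in 1.79%. A match says only that the letters are there.

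Counts of cell cycle genes followed the scaling and lay near the 17.1% called over all genes, at 20.8% for replication and 14.3% for mitosis. Of 24 replication genes 4 rose and 1 fell, against 7 and 0 as deposited and 1 and 1 after median centring. Of 21 mitosis genes 3 rose and 0 fell, against 8 and 0 as deposited and 1 and 0 after centring. Plk1, a mitotic kinase, read 7.98, 7.92 and 7.99 on the wild-type and 8.51, 8.37 and 9.05 on the knockout-labelled arrays (0.68 ± 0.16, adjusted p = 0.00975). Without knockout-labelled array 2 the mitosis genes that rose numbered 7, and without wild-type array 1, wild-type array 2 or knockout-labelled array 3 the replication genes that rose numbered 2 each time. Among regulators of G1, Cdk6 rose by 1.05 ± 0.13 (adjusted p = 0.000146), with 1 other probe set rising and 1 not called, and Ccnd2, the cyclin D2 gene, fell by 0.61 ± 0.14, a call that ended as deposited. Pdk1, which steers pyruvate away from mitochondria, rose by 1.09 ± 0.12 (adjusted p = 3.34e-05), 1 of 14 glycolysis genes of which 3 rose and 1 fell, or 6 and 0 as deposited. Another probe set of Pdk1 rose (0.72 ± 0.14), and others were not called (0.65 ± 0.26 and 0.43 ± 0.15). The lists of G1 regulators (3 up and 1 down of 19, 7 and 0 as deposited), ribosome biogenesis (2 and 0 of 18, 9 and 0 as deposited), PI3K and FOXO (1 and 2 of 22, 6 and 1 as deposited) and survival and death (2 and 2 of 12, 4 and 1 as deposited) also turned with the scaling. Their called shares ran from 11.1% for ribosome biogenesis to 33.3% for survival and death, against 17.1% of all genes.

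The other large differences lay in genes outside these lists. Pcdh9, a protocadherin, rose from 5.09, 4.41 and 4.66 to 8.35, 8.65 and 7.74 (3.52 ± 0.30, adjusted p = 4.99e-06), and Gfra2, a receptor for neurturin, from 8.46, 8.33 and 8.69 to 11.07, 10.94 and 10.76 (2.43 ± 0.12, adjusted p = 9.26e-08). Between these in size were Grb7, an adaptor, Tmem255a, 2510009E07Rik, Serpinf1, Arpp21, the amino acid enzyme Bcat1, Smtnl2, Bfsp2, Ankrd6, the adhesion receptor Adgrg1 and Ttll11, from 3.45 ± 0.32 for Grb7 to 2.47 ± 0.16 for Ttll11. Another probe set was not called for Pcdh9 (0.52 ± 0.41), Gfra2 (0.46 ± 0.23) and Ttll11 (-0.76 ± 0.29). The rest of the tested probe sets of these genes rose. Among the falls, Reln, which encodes the secreted glycoprotein reelin, went from 10.25, 10.20 and 10.08 to 7.81, 8.13 and 7.06 (-2.51 ± 0.22, adjusted p = 5.85e-06). Sspn (-2.73 ± 0.22), the myosin Myo1e (-2.66 ± 0.37), the collagen Col5a3 (-2.51 ± 0.24), Gm8369 (-2.50 ± 0.20) and Pxdc1 (-2.40 ± 0.22) fell by like amounts. These genes were chosen among those whose groups did not overlap, so the lack of overlap is not a result.

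Among the genes named here the deepest fall was that of G530011O06Rik, a predicted gene, which read 11.95, 10.01 and 10.21 on the wild-type and 4.09, 5.42 and 4.44 on the knockout-labelled arrays (-6.07 ± 0.51, adjusted p = 4.93e-06). It did not fall in the LAP transgenic background (-0.24 ± 0.51, adjusted p = 0.783). Some genes were under the filter level in one group, so that their differences depend on the pseudocount. Crhbp, a hormone-binding protein, rose from 3.98, 3.45 and 2.47 to 8.54, 8.44 and 8.06, the potassium channel Kcna5 from 2.73, 2.37 and 2.30 to 6.69, 6.65 and 7.05, and Rasa4 from 2.58, 2.62 and 2.69 to 6.92, 6.16 and 6.39. Rab30 fell from 6.96, 7.13 and 6.65 to 2.71, 2.19 and 4.13, with Rbm24 (-3.57 ± 0.25) and Slco5a1 (-3.21 ± 0.36) next to it. These were chosen as the largest differences among called genes with one mean under the filter level, so their lack of overlap is not a result.

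Markers of other cells that a B220 sort could hold were summed on the linear scale for each array. For the T cell list of 14 genes on the array the sum ran from 283.1 to 349.8 on the wild-type and from 599.8 to 702.8 on the knockout-labelled arrays. Of the 10 tested, only Lat and Thy1 were called, or 20%, against 17.1% over all genes. Thy1, an antigen of T cells and of some early precursors, read 4.04, 4.61 and 4.97 against 6.46, 6.17 and 7.01 (2.00 ± 0.28, adjusted p = 0.000267). The T cell receptor genes Cd3e (-0.066 ± 0.58), Cd3d (-0.051 ± 0.29) and Cd3g (-0.45 ± 0.25) were not called, and all their values on the 6 arrays lay between 2.93 and 5.50. For 11 NK cell genes the sum was 2296 to 2522 against 2441 to 3666. Of these 4 rose, Klrd1, Gzma, Prf1 and Eomes, or 36.4%, against 17.1% called and 8.38% called higher over all genes. When any one of the 6 arrays was left out, 1 or 2 rose. The other probe set of Prf1 was not called (0.21 ± 0.36), and the mean of its probe sets ended its call. That of Eomes rose (2.20 ± 0.41).

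The sum of the 10 plasmacytoid dendritic cell genes was 2961 to 3614 in wild-type and 3873 to 4742 in knockout-labelled samples. Of the 10, 2 rose, Tcf4 and Itgax, and the others were not called. That is 20%, against 17.1% called and 8.38% called higher over all genes. Tcf4 is also in the list of B-lineage factors. For 14 neutrophil genes the ranges were 19027 to 23598 and 15480 to 33567, with 0 of 14 called. For 17 monocyte and macrophage genes they were 13726 to 16638 and 11858 to 19905, with 1 called, F13a1 (1.51 ± 0.23). Their part in the results was not tested. The erythroid (6839 to 7655 against 4814 to 10383), megakaryocyte (2683 to 2747 against 2762 to 5687) and basophil (175.1 to 241.4 against 189.0 to 351.2) lists held 1 called gene among them, the transferrin receptor Tfrc. The sum of 9 plasma cell genes was higher without overlap, 8122 to 8446 in wild-type and 8683 to 9340 in knockout-labelled samples. Of its 8 tested genes 1 rose, Mzb1, and 5 fell, with a median of -0.52. As deposited 1 rose and 2 fell, and 3 fell without wild-type array 3 or knockout-labelled array 1. Sdc1, the antigen CD138, read 8.66, 8.58 and 8.58 against 6.58, 6.03 and 6.47 (-2.25 ± 0.26, adjusted p = 6.15e-05), and Prdm1, the regulator of plasma cells, fell by 1.18 ± 0.18. The J chain gene Jchain was not called (0.013 ± 0.38). Igha, the constant gene of IgA, rose by 1.12 ± 0.28 (adjusted p = 0.0132), but neither of its other probe sets was called, and without knockout-labelled array 1 neither was this one (1.01).

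The same Blnk label can be compared within 6 other arrays, from mice that all carried the LAP transgene. None of the 6 is a wild-type or knockout-labelled array of the comparison above, but all 12 were normalized, filtered and fitted together and share one estimate of the spread. Without array 3 of the LAP transgenic group the knockout label alone gave 1350 higher and 1334 lower genes. LAP is the activating form of the factor C/EBP beta. There limma called 3601 of 13342 genes (27%), 1931 higher (14.5%) and 1670 lower (12.5%) with the knockout label. Of the 1118 genes higher without the transgene, 832 were called higher with it, which is 74.4% of the first and 43.1% of the second list. Of the 1159 lower, 811 were called lower, or 70.0% and 48.6%. In the opposite direction 16 and 7 were called. Across genes, which are not independent replicates, the 2 sets of differences had r = 0.652 and rho = 0.531. Enpep differed by 2.74 ± 0.19, Igll1 by 2.48 ± 0.15, Dntt by 2.99 ± 0.24, Erg by 3.85 ± 0.15, Lat by 1.04 ± 0.13, Plcg1 by 1.71 ± 0.10, Lat2 by -3.03 ± 0.20, Rasgrp1 by -4.48 ± 0.12 and H2-Eb1 by -4.06 ± 0.17 in that background.

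**Figure D4:**
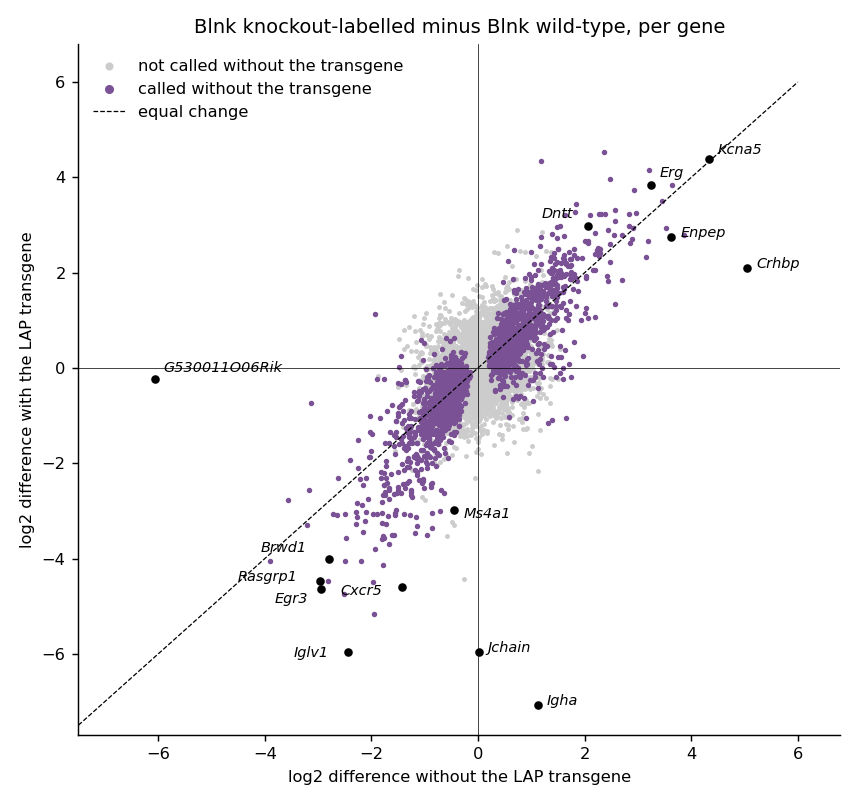
Log2 difference between Blnk knockout-labelled and Blnk wild-type marrow for each of 13342 genes, without the LAP transgene (across) and with it (up), 3 arrays against 3 for each axis. Genes called without the transgene are purple, named genes black, and the dashed line marks equal change. Egr3, Rasgrp1, Brwd1 and Iglv1 lie below the line, and Igha and Jchain fell with the transgene but not without it.

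Whether the 2 differences were unequal was tested as an interaction, which limma called for 231 genes (1.73%), 65 with a positive (0.487%) and 166 with a negative sign (1.24%). These counts leaned on single arrays. The positive ones numbered 39 when wild-type array 1 was left out, 36 for wild-type array 3, 34 for knockout-labelled array 2, 123 for knockout-labelled array 3, 106 for LAP transgenic array 3 and 36 for array 3 of the transgenic knockout group. The negative ones numbered 100, 103, 99 and 110 without wild-type array 1, wild-type array 3, knockout-labelled array 2 and array 3 of the transgenic knockout group. Of the 2277 genes called without the transgene, 150 were among them. Most of these, 110, moved the same way and further with the transgene, and 89 of the 110 were falls. The interaction was called for 3 of the 5 light chain genes, 12 of the 21 immature and mature surface genes (8 as deposited) and 5 of the 11 class II genes, all negative. Igha was higher without the transgene and lower with it (-7.08 ± 0.28), and Jchain was lower with it (-5.97 ± 0.38).

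The label can also be set beside a gain of BLNK. LB31 cells labelled as given Blnk cDNA were compared with those labelled as given the empty vector, on arrays normalized apart from the marrow, and limma called 2072 of 13034 genes (15.9%), 957 higher (7.34%) and 1115 lower (8.55%). Of 1033 genes higher in knockout-labelled marrow and tested in LB31, 248 (24.0%) were lower with the BLNK label and 106 (10.3%) higher. The 248 are 22.5% of the LB31 falls tested in marrow. Of 1084 genes lower in knockout-labelled marrow, 148 (13.7%) were higher with the BLNK label, which is 15.6% of the LB31 rises tested in marrow, and 116 (10.7%) were lower. Without the first BLNK-labelled array the rises in LB31 numbered 635 in place of 957. LB31 is a single leukaemia line grown with interleukin 7. The Blnk probe set read lower with the BLNK label there (-1.15 ± 0.06), so the label is not borne out by it, and the cells are called BLNK-labelled. As deposited 358 genes were higher and 147 lower in LB31.

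Dntt was lower with the BLNK label in LB31 (-2.90 ± 0.055), as were Erg (-0.89 ± 0.074), Lcp2 (-0.92 ± 0.13), Plcg1 (-0.77 ± 0.067), Fyn (-0.48 ± 0.08) and Rasgrp2 (-1.0 ± 0.049), all of which were higher in knockout-labelled marrow. Egr1 (3.31 ± 0.19), Egr2 (3.20 ± 0.28), Cd22 (2.63 ± 0.13), Ptpn6 (1.55 ± 0.058) and Btla (1.39 ± 0.22) were higher with the BLNK label and lower in knockout-labelled marrow. Enpep did not pass the test in LB31 (0.04 ± 0.04, adjusted p = 0.570), and Igll1 differed by only -0.22 ± 0.036. Dusp5 (-1.22 ± 0.076), Cd2 (-1.0 ± 0.18) and Klf2 (-0.42 ± 0.13) were lower both with the BLNK label in LB31 and with the knockout label in marrow. The class II genes H2-Eb1 (-0.066 ± 0.39) and H2-Ab1 (0.015 ± 0.17) were not called in LB31.

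**Figure D5:**
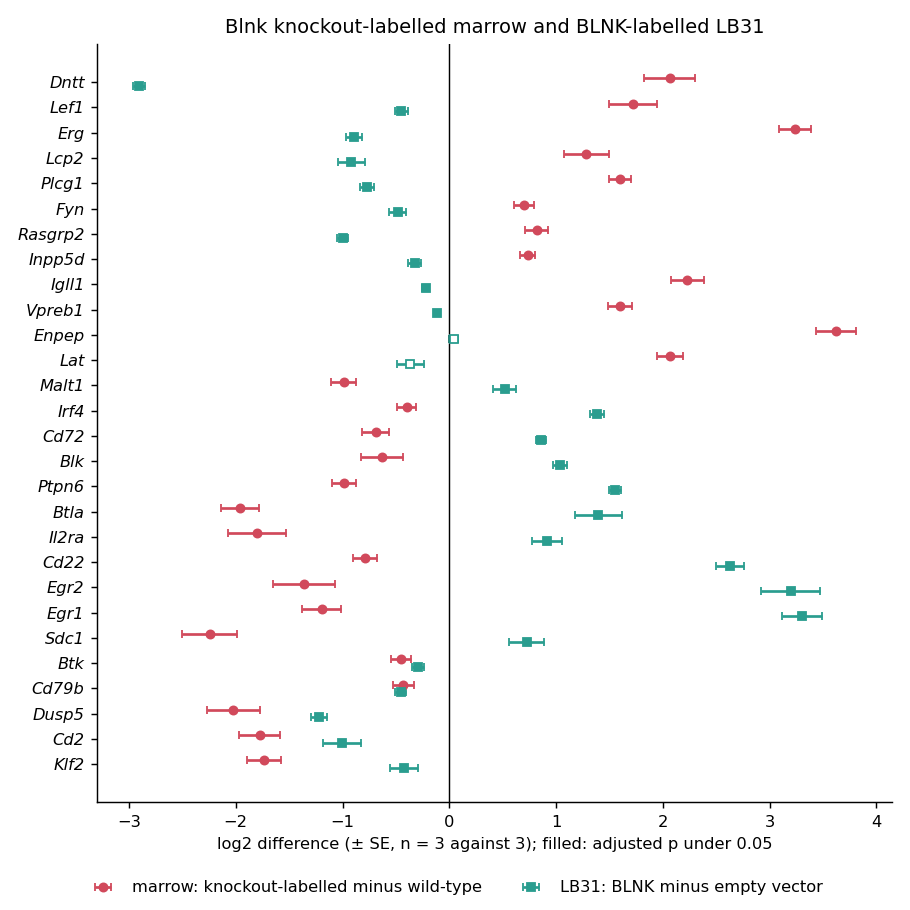
Log2 differences ± SE of 28 genes in marrow (knockout-labelled minus wild-type, red circles) and in LB31 (BLNK minus empty vector, green squares), 3 arrays against 3 each, with filled points at an adjusted p under 0.05. Dntt moved most in the opposite sense (2.07 and -2.90), and Btk, Cd79b, Dusp5, Cd2 and Klf2, at the foot, were lower in both.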

How the data were processed

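RNA of sorted B220-positive marrow cells and of LB31 cells was hybridised to Affymetrix Mouse Genome arrays, 1 per sample. Per the submitters' processing notes, the deposited intensity values are MAS5 probe set signals, with no word on the scaling target. Here log2(signal + 4) was quantile-normalized over the 12 marrow arrays. Of 45101 probe sets, 34945 have 1 gene symbol in the platform annotation, 932 several and 9160 none, and only the first were named. For each gene the probe set with the highest mean was kept, and kept only if above the 40th percentile of its array on 3 or more arrays. Differences were fitted with limma 3.58.1 (R 4.3.3; lmFit, eBayes with trend) on all 4 marrow groups, 8 residual degrees of freedom, with no block, and Benjamini-Hochberg adjusted p-values over all genes. LB31 (9 arrays) was normalized and fitted apart. The script was tested on simulated data.

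Named genes were the 15 largest rises and falls with groups that did not overlap and both means above the filter level, the 3 largest each way with one mean under it, the 5 with the smallest interaction p, members of the lists, and called genes next to Blnk, the last chosen after their values were seen. Members and lists were chosen with earlier results of these data known. Alternatives were the scaling, pseudocount, filter, probe set rule, intensity trend, replicate block, the 6 arrays alone and leaving out each array. Promoters are from RefSeq (GRCm38.p6). The LB31 cells with mutant Blnk were not compared. They entered the normalization, filter and estimate of spread of LB31, and the mean that chose each gene's probe set.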

Additional observations from a re-analysis of the deposited data

Results flagged for a closer look

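For 40 of 173 genes named or listed, the difference between Blnk knockout-labelled and Blnk wild-type marrow was not the same with and without the LAP transgene, by limma's interaction test at an adjusted p under 0.05. Over all 13342 genes tested, 1.73% passed it, but the 173 include 5 genes chosen for the smallest interaction p and others chosen for large differences without the transgene, which enter the test, so the 2 shares are not comparable. The values below are the log2 difference with the transgene minus that without it. The sign was negative for 39 genes and positive for 1, G530011O06Rik (5.83), whose difference was -6.07 without the transgene and -0.24 with it.

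Among immunoglobulin genes and the J chain the values were Igha (-8.20), Jchain (-5.98), Igkv8-30 (-4.18), Iglv1 (-3.51) and Igk (-1.86). For class II presentation they were H2-DMb2 (-2.36), H2-Aa (-2.16), Cd74 (-1.93), H2-Eb1 (-1.86) and Ifi30 (-1.32). Surface receptors of B cells gave Fcer2a (-3.22), Ly6d (-2.55), Ms4a1 (-2.54), Cd40 (-2.29), Cd2 (-1.76), Fcmr (-1.65), Ms4a4c (-1.53), Cr2 (-1.24) and Cd83 (-1.09). Homing receptors gave Cxcr5 (-3.18), Ccr7 (-1.88) and Cnr2 (-1.41). Signalling genes gave Btla (-2.53), Blk (-2.0), Rasgrp1 (-1.52), Rasgrp3 (-1.34), Cd22 (-1.27), Lat (-1.03), Bank1 (-0.70) and Nfkbia (-0.66). Transcriptional regulators and the cyclin D2 gene gave Egr3 (-1.69), Klf2 (-1.55), Ikzf3 (-1.49), Brwd1 (-1.23), Ccnd2 (-1.17) and Irf8 (-1.07). The remaining genes were Crhbp (-2.94), Reln (-2.23) and Gm8369 (-1.56).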

How the results depend on the processing

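Values as deposited gave 3215 higher and 377 lower genes for the knockout label, 5458 and 565 in the LAP transgenic background, 43 positive and 80 negative interactions, and 358 and 147 in LB31. Median centring gave 1500 and 310 in LB31, the mean of a gene's probe sets 710 lower there, and a fit without intensity trend 531 and 715 there and 101 negative interactions. Leaving out single arrays gave 796 to 1350 higher and 774 to 1334 lower for the knockout label, 34 to 123 positive and 99 to 247 negative interactions, and 635 to 1341 higher and 845 to 1467 lower in LB31. The setting without array 3 of the LAP transgenic group was chosen after seeing the data. The replicate block gave 1081 higher and 1120 lower for the knockout label and ended 1 call of a named gene. Samples with the same number deviated together little (r = 0.07, -0.0023 and -0.0020), and 1 of 3 matched its own number best, so the numbers were not taken as pairs. Of 154 called genes among 173 named or listed, 110 kept direction and call in each of the 17 alternatives that tested them for the knockout label, and 0 reversed. Not every gene was tested in each alternative. The filter at the 60th percentile tested 150 of the 154. The cause of these shifts was not tested. With 3 arrays a group, probe sets near the filter level are the least certain.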
